A study of Mus musculus with 8 samples.

Results

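The receptors for the colony-stimulating factors and their closest relatives were followed in mouse bone marrow macrophages turning into osteoclasts, the multinucleated cells that resorb bone. The members were 8 genes chosen by symbol: Csf1r, Csf2ra, Csf2rb, Csf2rb2, Csf3r, Il3ra, Kit and Flt3. Of these, 6 genes had 12 probes among the 25697 probes of the array, which carry 16593 named genes in all. Csf1r and Kit carried no listed probe and were not analysed here, so the receptor for the M-CSF in these cultures has no value below.

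The cells were primary macrophages grown from femur and tibia marrow of C57BL/6 mice aged 6 to 8 weeks. Marrow cells first received M-CSF at 5 ng/ml for 16 h, and the non-adherent ones then grew in M-CSF at 30 ng/ml for 3 days before the floating cells were discarded. The adherent macrophages are day 0, and the groups at days 1, 2 and 3 were given RANKL, the osteoclast differentiation factor, at 50 ng/ml together with M-CSF at 30 ng/ml. Each of the 4 days had 2 single-colour bead arrays, 8 arrays in all, so every group had been in M-CSF and the number of arrays limits the precision. Later-day cells without RANKL were not among the arrays used here, so RANKL and time in culture cannot be told apart. Whether the replicate arrays stand for separate cultures or mice is not said in the labels. The p-values measure the spread between these arrays, which may be technical.

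The family joins kinase receptors and cytokine receptors. Csf1r, Kit and Flt3 are class III receptor tyrosine kinases for M-CSF and IL-34, for stem cell factor and for Flt3 ligand. Csf2ra and Il3ra encode the ligand-specific alpha chains for GM-CSF and IL-3, which have no kinase of their own and signal with a beta chain that binds JAK2 and activates STAT5. In the mouse there are a pair of such beta chains: Csf2rb, shared by the GM-CSF, IL-3 and IL-5 receptors, and its close relative Csf2rb2, which serves IL-3. Csf3r is the G-CSF receptor of the neutrophil lineage. M-CSF keeps macrophages and osteoclast precursors alive, whereas GM-CSF and IL-3 are known to turn early precursors away from the osteoclast fate in culture.

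The arrays showed the labelled change of cell type. Against day 0, of 9 tested osteoclast marker genes 5 were higher and 0 lower at day 1, and 8 were higher and 0 lower at days 2 and 3. Of 9 tested macrophage markers 7 were lower and 0 higher at day 1, and 8 were lower and 0 higher at days 2 and 3. Over all 8663 tested genes, 1 probe each, 23.0% were called higher and 21.0% lower at day 1, 27.0% and 25.9% at day 2, and 28.7% and 29.3% at day 3. Between 43.9% and 44.21% of probes were detected per array, meaning a detection p-value under 0.05, and replicate arrays correlated at r = 0.9927 to 0.995 across probes, which are not independent replicates. In bulk RNA, fewer cells of a type and less RNA per cell cannot be told apart. Levels below are the deposited signals, linear intensities that include background. Differences and tests are on background-corrected, quantile-normalized log2 intensities, with p-values from limma adjusted by Benjamini-Hochberg over the 12683 probes tested and 0.05 as the threshold. Probes differ in how brightly they report a transcript, so no probe's level is set against another's.

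The beta chain transcripts were higher after RANKL, the IL-3 receptor alpha chain was lower at days 1 and 2, the GM-CSF receptor alpha chain was lower at day 1 alone, and the G-CSF receptor was detected at day 0 alone. These statements rest on 7 tested probes of 5 genes. Against day 0, 3 of the 7 probes were higher and 3 lower at day 1, where 43.0% of all tested probes were called (23.6% higher and 19.4% lower). At day 2, 3 were higher and 2 lower, against 50.8% of all tested probes (26.7% higher and 24.1% lower). At day 3, 4 were higher and 1 lower, against 56.2% (28.1% in each direction). The moderated F test over the 4 days called 6 of the 7, against 69.9% of all tested probes. Only probes detected on at least 2 arrays were tested, and 3 of the 7 (1 for Csf3r and 2 for Csf2rb) entered through the days at which they were detected, so the counts describe these probes and are read no further. The comparisons with day 0 share its 2 arrays. With so few arrays, non-overlap of 2 days was common: it held for 72.2% of all tested probes between days 1 and 0, 74.8% between days 2 and 0 and 75.8% between days 3 and 0.

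**Figure D1:**
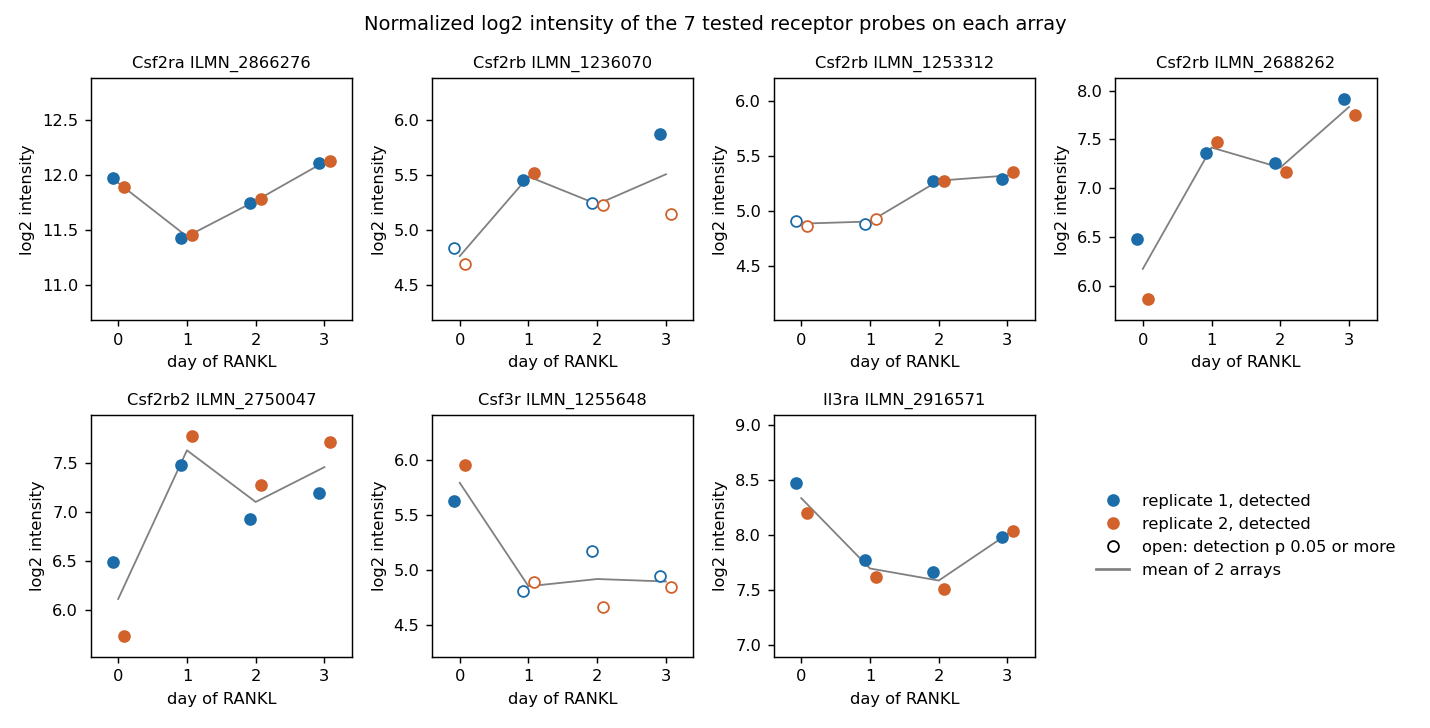
Normalized log2 intensity (vertical axes) of the 7 tested receptor probes on each of the 8 arrays by day of RANKL. Filled circles are detected and open circles undetected values, and a line runs through the mean of the 2 arrays. The vertical axes span more log2 units for the Csf2rb probe ILMN_2688262 and for Csf2rb2 than for the other probes. The Csf2rb probe ILMN_2688262 and Csf2rb2 sit above day 0 on every later array, Csf2ra dips at day 1, and Csf3r is filled at day 0 alone.

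The common beta chain was called higher on all later days with 1 of its 3 probes. On the Csf2rb probe detected on all arrays, ILMN_2688262, the signal was 234 and 197 at day 0 and 330 and 334 at day 1. It was 286 and 298 at day 2 and 343 and 335 at day 3. All 6 arrays with RANKL lay above both arrays of day 0. The log2 difference was 1.25 ± 0.195 at day 1 (limma adjusted p = 0.00228), 1.04 ± 0.195 at day 2 (adjusted p = 0.00384) and 1.66 ± 0.195 at day 3 (adjusted p = 0.000326), the last a 3.16-fold higher level (± is the standard error of the difference, 2 arrays a day). Among the later days no difference passed the test: day 2 less day 1 was -0.21 (adjusted p = 0.437), day 3 less day 2 was 0.62 (adjusted p = 0.0695) and day 3 less day 1 was 0.42 (adjusted p = 0.111). The difference of days 3 and 2 did pass in 6 of 11 alternatives and in 2 of the 8 fits that left out 1 array, and that of days 3 and 1 in 3 and 2. The calls against day 0 held in each alternative processing and with each array left out, but their size depends on the background, since without background correction they were 0.51 (day 1), 0.40 (day 2) and 0.74 (day 3).

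The other Csf2rb probes lay near the detection limit. ILMN_1236070 had signals of 164 and 159 at day 0, 193 and 193 at day 1, 180 and 189 at day 2, and 191 and 175 at day 3, and it was detected on both arrays of day 1 and on 1 array of day 3. Its increase passed the test at day 1 (0.72 ± 0.218, adjusted p = 0.0334, at least 1.17-fold) and day 3 (0.75 ± 0.218, adjusted p = 0.023, at least 1.19-fold), while day 2 did not (0.47, adjusted p = 0.114). A fold against days on which a probe is undetected is given as a lower bound, with each undetected array set at the lowest detected intensity of that array or its own value, whichever is higher. The day 1 call of this probe was kept in 2 of the 8 fits that each left out 1 array. It was lost without either array of day 0 (adjusted p = 0.0789 and 0.132), of day 1 (0.0989 and 0.126) or of day 2 (0.0545 for each), and without background correction (0.18, adjusted p = 0.0546). Its day 3 call was lost without either array of day 0 (adjusted p = 0.0576 and 0.102) and with the arrays of days 3 and 0 fitted alone (0.0683).

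ILMN_1253312 had signals of 167 and 166 at day 0, 173 and 173 at day 1, 181 and 191 at day 2, and 173 and 181 at day 3, with detection on both arrays of days 2 and 3 and on none before. The day 1 difference did not pass (0.02, adjusted p = 0.875), whereas day 2 was higher by 0.39 ± 0.085 (adjusted p = 0.00752, at least 1.01-fold) and day 3 by 0.44 ± 0.085 (adjusted p = 0.00392, at least 1.05-fold). Both calls held with each array left out, but without background correction neither passed (adjusted p = 0.245 and 0.186), and they held in 4 and 5 of the 8 other alternatives that kept the probe. Day 2 was higher than day 1 by 0.37 (adjusted p = 0.0112) and day 3 higher than day 1 by 0.42 (adjusted p = 0.00487), calls that 4 of these 8 alternatives kept. The first of them was kept in 5 of the 8 fits that each left out 1 array. Both dim probes were tested only because they were detected on later days, which favours a higher value there, so their sign adds no support to that of ILMN_2688262. Likewise, a gene of the lists below that was undetected on a compared day was favoured to be lower on that day. The sequences of the probes were not used here.

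Csf2rb2, the IL-3 specific beta chain, was higher on every later day. Its probe ILMN_2750047 read 234 and 193 at day 0, 348 and 379 at day 1, 258 and 311 at day 2, and 266 and 331 at day 3. All later arrays exceeded both day 0 arrays, the day 1 pair had the highest signals, and replicate 2 was the higher array at each of days 1, 2 and 3. The log2 difference was 1.52 ± 0.289 at day 1 (adjusted p = 0.00532, 2.87-fold), 0.99 ± 0.289 at day 2 (adjusted p = 0.0254, 1.99-fold) and 1.35 ± 0.289 at day 3 (adjusted p = 0.00616, 2.55-fold). Day 2 less day 1 was -0.53, with a 95% interval of -1.22 to 0.16, and did not pass (adjusted p = 0.185). Day 3 less day 1 did not pass either (-0.17, adjusted p = 0.642), and the log2 values of these 2 days overlapped. The day 2 call was lost without replicate 2 of day 0 (0.62, adjusted p = 0.122) and without replicate 2 of day 2 (0.82, adjusted p = 0.124). Without background correction the differences were 0.64 at day 1, 0.37 at day 2 and 0.55 at day 3, each still passing. Csf2rb and Csf2rb2 are near-identical neighbours on chromosome 15, and whether a probe of one also binds the other's transcript was not tested.

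The promoters shown are those of the detected members with a matched gene start. They are Csf2rb2, which was higher on all later days, and Csf2ra, Il3ra and Csf3r, which were lower at day 1. Csf2rb was not matched. Each sequence is from RefSeq (GRCm38.p6), runs 5′ to 3′ on the gene's strand and covers 250 bases before to 50 bases after the gene's start, in all 300 bases. Capitals mark matches, on either strand, to the ETS motif GAGGAA, bound by factors such as PU.1, and to the STAT site TTCNNNGAA. GAGGAA is narrower than the ETS core GGAA, which was not searched. No match to the AP-1 site TGANTCA was found in them. Csf2rb2 lies at chr15:78305672-78305971 on the minus strand, Csf2ra at chr19:61228369-61228668 on the minus strand, Il3ra at chr14:14346245-14346544 on the plus strand and Csf3r at chr4:126024409-126024708 on the plus strand.
Csf2rb2: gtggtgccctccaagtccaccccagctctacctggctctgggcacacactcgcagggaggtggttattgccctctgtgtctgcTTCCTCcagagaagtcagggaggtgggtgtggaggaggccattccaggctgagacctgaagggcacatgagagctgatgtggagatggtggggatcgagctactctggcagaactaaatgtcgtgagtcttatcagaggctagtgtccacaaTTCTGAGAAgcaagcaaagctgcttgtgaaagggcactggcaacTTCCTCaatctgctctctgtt
Csf2ra: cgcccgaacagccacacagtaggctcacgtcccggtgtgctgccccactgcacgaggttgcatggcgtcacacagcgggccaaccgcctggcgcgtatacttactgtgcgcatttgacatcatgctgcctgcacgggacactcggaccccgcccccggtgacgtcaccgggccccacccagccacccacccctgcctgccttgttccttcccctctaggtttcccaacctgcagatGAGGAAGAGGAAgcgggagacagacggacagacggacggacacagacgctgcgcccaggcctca
Il3ra: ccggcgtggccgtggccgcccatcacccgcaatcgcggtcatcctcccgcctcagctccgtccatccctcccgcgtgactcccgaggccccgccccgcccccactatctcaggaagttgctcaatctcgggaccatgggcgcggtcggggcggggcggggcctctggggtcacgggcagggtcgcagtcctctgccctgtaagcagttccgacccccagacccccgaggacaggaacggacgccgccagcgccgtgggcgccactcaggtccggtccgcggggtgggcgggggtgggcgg
Csf3r: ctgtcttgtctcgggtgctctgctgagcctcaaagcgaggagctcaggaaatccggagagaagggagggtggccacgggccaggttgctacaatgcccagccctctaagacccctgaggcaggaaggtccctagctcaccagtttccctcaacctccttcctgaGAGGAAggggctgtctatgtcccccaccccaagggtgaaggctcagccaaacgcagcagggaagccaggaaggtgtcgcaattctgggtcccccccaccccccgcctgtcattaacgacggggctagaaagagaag

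The Csf2rb2 window held 2 GAGGAA matches, both on the opposite strand and starting at positions -167 and 30 relative to the gene's start, and 1 STAT match starting at position -15. The Csf2ra window held 2 GAGGAA matches starting at -14 and -8, and the Csf3r window 1 at -86. The Il3ra window had 0 matches to any of the 3 motifs, though the shorter core GGAA occurs in it. Among 32851 promoters of the same length, 28.3% held GAGGAA, 8.3% the STAT site and 7.81% the AP-1 site. These are matches of letters, and whether any of them is bound was not measured.

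Csf2ra, the GM-CSF receptor alpha chain, was far above background at all times and dipped at day 1. Its probe ILMN_2866276 read 4228 and 3830 at day 0, 3240 and 3059 at day 1, 3468 and 3790 at day 2, and 4172 and 4382 at day 3. The day 1 arrays were the lowest, and the day 3 arrays were back within or just above the signals of day 0. On the log2 scale day 1 was lower than day 0 by -0.49 ± 0.0855 (adjusted p = 0.00374), a 1.40-fold lower level. Day 2 (-0.16, adjusted p = 0.157) and day 3 (0.19, 95% interval -0.01 to 0.39, adjusted p = 0.0974) did not pass against day 0.

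From day 1 the Csf2ra level climbed again. Day 3 was higher than day 1 by 0.68 ± 0.0855 (adjusted p = 0.000509, 1.60-fold), which held in each alternative. Between days 3 and 1, 2 of the 7 tested probes were called, both higher, against 56.9% of all tested probes (26.9% higher). The single steps were smaller: day 2 was higher than day 1 by 0.32 (adjusted p = 0.0198), and day 3 higher than day 2 by 0.35 (adjusted p = 0.0334). For day 2 against day 1, 2 of the 7 probes were called, both higher, against 44.7% of all tested probes (21.1% higher). For day 3 against day 2, 1 was called higher, against 18.5% (8.70% higher). The step to day 2 was lost when either array of day 1 (adjusted p = 0.0916 and 0.0744) or of day 2 (0.0673 and 0.0939) was left out, and with median scaling (0.20, adjusted p = 0.15). The step to day 3 was lost when any array of days 1, 2 or 3 was left out (adjusted p = 0.0634 to 0.143) and in 4 of the other alternatives.

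Il3ra, the IL-3 receptor alpha chain, was lower at days 1 and 2. Its probe ILMN_2916571 was detected on all arrays and read 521 and 431 at day 0, 395 and 353 at day 1, 338 and 339 at day 2, and 354 and 377 at day 3. Both day 0 arrays lay above all later ones. The log2 difference was -0.64 ± 0.126 at day 1 (adjusted p = 0.00628, 1.56-fold lower) and -0.75 ± 0.126 at day 2 (adjusted p = 0.00231, 1.68-fold lower). Day 3 was closer to day 0, at -0.33 with a 95% interval of -0.63 to -0.03, and did not pass (adjusted p = 0.0629). It passed without replicate 2 of day 0 (-0.46, adjusted p = 0.03), with median scaling (-0.50, adjusted p = 0.0287) and in 4 other alternatives. Without background correction the day 1 difference was -0.40 and the day 2 difference -0.46, both passing.

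The alpha chain and the IL-3 specific beta chain of the IL-3 receptor were called in opposite directions at days 1 and 2. Il3ra was lower by 1.56-fold and 1.68-fold, while Csf2rb2 was higher by 2.87-fold and 1.99-fold at the same days. These differences were smaller without background correction, and the day 2 call of Csf2rb2 was kept in 6 of the 8 fits that each left out 1 array. For the GM-CSF receptor, Csf2ra was lower by 1.40-fold at day 1, when the Csf2rb probe ILMN_2688262 was higher by 2.37-fold. These comparisons use the same 4 arrays at each day, and the difference between the chains was not tested.

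**Figure D2:**
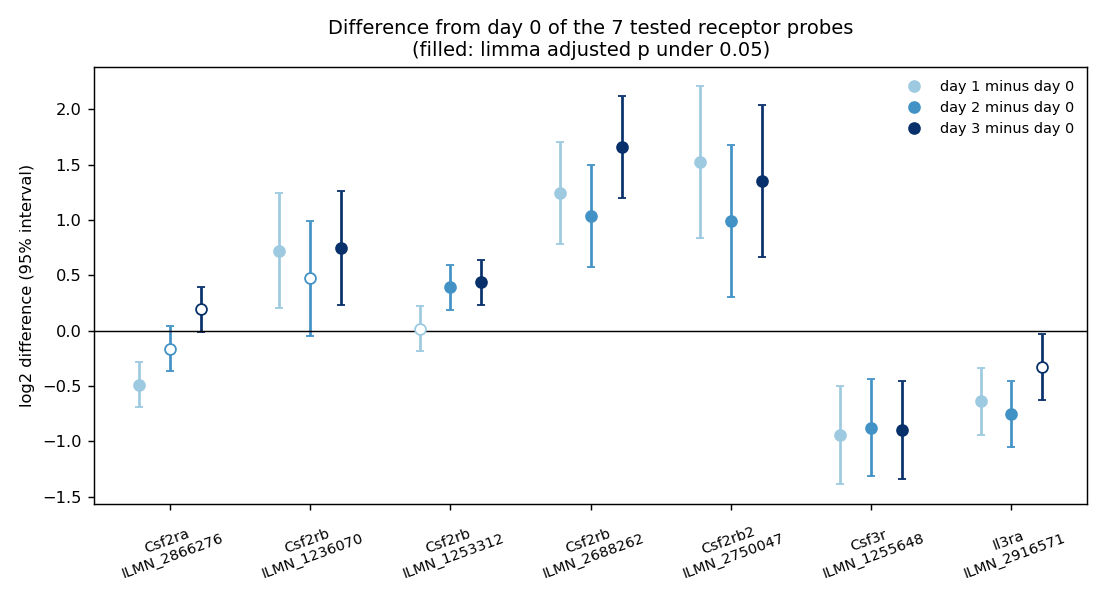
Log2 difference from day 0 (vertical axis) of the 7 tested receptor probes at days 1, 2 and 3, with bars for the 95% interval of the limma fit and filled circles where the adjusted p is under 0.05. The Csf2rb probe ILMN_2688262 and Csf2rb2 lie above 0 at each day, and Csf3r lies below 0, while Csf2ra crosses 0 between days 2 and 3.

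Csf3r, the G-CSF receptor, had 5 probes, and 1 of them was detected. ILMN_1255648 read 190 and 201 at day 0, 170 and 172 at day 1, 178 and 168 at day 2, and 164 and 166 at day 3. It was detected on both arrays of day 0 and on none of the other 6, and its day 0 signals were the highest. The log2 difference was -0.94 ± 0.186 at day 1 (adjusted p = 0.00625, at least 1.47-fold lower), -0.88 at day 2 (adjusted p = 0.00673, at least 1.45-fold lower) and -0.90 at day 3 (adjusted p = 0.00523, at least 1.46-fold lower). The probe was tested only because day 0 was detected, so it had to be higher there. The size rests on the background correction: without it the difference was -0.23 at day 1 and -0.22 at both later days. The F test of this probe was lost without replicate 2 of day 0 (adjusted p = 0.067).

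The remaining 4 Csf3r probes, ILMN_1241302, ILMN_2707409, ILMN_2746501 and ILMN_2806180, were detected on 0 of the 8 arrays and were not tested. Their signals ranged from 134 to 178, and the closest to detection was ILMN_2806180 on replicate 2 of day 0, with a detection p of 0.0501 at a signal of 178. Flt3, the kinase receptor of early progenitors and dendritic cell precursors, was also detected on 0 of 8 arrays. Its probe ILMN_2761370 read 165 and 159 at day 0, 153 and 160 at day 1, 163 and 176 at day 2, and 159 and 162 at day 3. Such signals say only that the transcripts were not detectable with these probes.

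**Figure D3:**
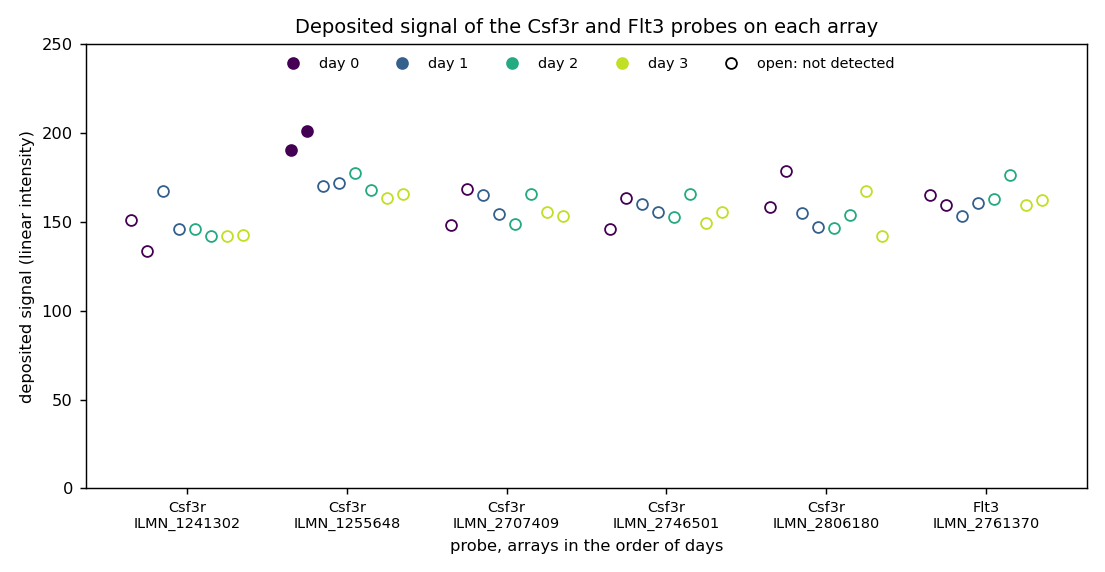
Deposited signal (linear intensity, vertical axis from 0) of the 5 Csf3r probes and the Flt3 probe on each of the 8 arrays, arrays in the order of days, filled where detected. The day 0 arrays of ILMN_1255648, at 190 and 201, are the 2 detected values and the highest of the plot.

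Most tested markers of the neutrophil lineage, in which Csf3r is best known, were called lower at days 2 and 3. Of 11 tested neutrophil and granulocyte precursor genes, 4 were lower and 0 higher at day 1. At day 2, 9 were lower and 0 higher, and at day 3 again 9 were lower and 0 higher. Over all tested genes, 21.0%, 25.9% and 29.3% were called lower at days 1, 2 and 3. The medians were -0.56, -1.05 and -1.06 on the log2 scale. Of the 18 probes of the list, 11 and 13 were detected on the day 0 arrays, and 1 on each day 3 array. Genes that entered the test through the early days were favoured to be lower later, so these counts are read no further. The summed signal of all 18 probes of the list was 4233 and 4317 at day 0, 4142 and 3905 at day 1, 3111 and 3291 at day 2, and 2949 and 3018 at day 3. Among genes of late granulocytes, Ngp, Mmp8 and Retnlg were detected on no array. Ltf, of the secondary granules, was detected on both arrays of day 0 (191 and 207) and on 1 of day 1, and Camp on both arrays of days 0 and 1 and on 1 of day 2. Mpo, the myeloperoxidase of granule precursors, read 166 and 175 at day 3, undetected, against 334 and 318 at day 0 (at least 4.75-fold lower, adjusted p = 5.68e-06). Its other tested probes differed less at day 3, ILMN_2719256 by -0.57 (adjusted p = 0.0164) and ILMN_2925094 by -0.85 (adjusted p = 0.0014). At day 1 ILMN_2925094 was lower (-0.88, adjusted p = 0.00202) and ILMN_2719256 was not called (-0.35, adjusted p = 0.105). S100a8 read 287 and 279 at day 3, against 896 and 864 at day 0 (-2.16 ± 0.111, adjusted p = 6.11e-06). The 4 genes lower already at day 1 were Mpo (-1.10, adjusted p = 0.00051), Ctsg (-1.20, adjusted p = 0.000359), Elane (-0.74, adjusted p = 0.0227) and Prtn3 (-0.89, adjusted p = 0.00361), all of the primary granules or their precursors. The day 1 call of Elane was lost in 4 of the 18 alternatives that kept its probe. Prtn3, like the Csf3r probe, was detected on both arrays of day 0 and on none later, so it too was tested only through day 0. S100a8 was not called at day 1 (-0.18, adjusted p = 0.239). The part of these cells in the Csf3r signal was not tested.

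Other cell types gave few detected markers. Of 11 mast cell and basophil genes, whose lineages respond to IL-3, 8 were detected on no array. Of the 2 tested, Gata2 was higher at day 1 (at least 1.42-fold, adjusted p = 0.00214) and day 2 (at least 1.41-fold, adjusted p = 0.00162), and 0 were called at day 3. Gata2 was undetected at days 0 and 3, so it was tested only through the days on which it was higher. The summed signal of the 14 mast cell and basophil probes was 2235 and 2232 at day 0, 2364 and 2340 at day 1, 2277 and 2391 at day 2, and 2144 and 2219 at day 3. Of 5 tested dendritic cell genes, 3 were lower and 0 higher at day 1, and 3 were lower and 2 higher at days 2 and 3. Xcr1, Clec9a, Ccr7, Cd209a and Ccr9 did not pass the detection filter. Of 4 tested stem and progenitor genes, 1 was higher at days 1 and 2, again Gata2, and Meis1 was lower at day 3 (-0.43, adjusted p = 0.0178), a call lost in 6 alternatives. Of 3 tested stromal genes, Dcn, a matrix proteoglycan, was higher at each day (at least 4.58-fold at day 1). It was undetected at day 0 and tested only through later days. All 3 tested lymphoid genes, Il7r, Cd79b and Klrd1, were lower at each day, while 4 of the 8 lymphoid genes with probes were never detected. Over all tested genes, 23.0% were called higher and 21.0% lower at day 1, 27.0% and 25.9% at day 2, and 28.7% and 29.3% at day 3. The part of these cells in the receptor signals was not tested.

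The ligands were largely undetected in the cells themselves. Csf1, Csf2, Il3, Il5, Kitl and Flt3l were detected on 0 of 8 arrays. Il34, which encodes the alternative ligand of Csf1r, was detected on 4 arrays. Its probe ILMN_2753761 read 147 and 167 at day 0, 216 and 247 at day 1, 182 and 188 at day 2, and 174 and 176 at day 3. The increase at day 1 passed the test (1.61 ± 0.21, adjusted p = 0.001, at least 2.04-fold), and Il34 was lower again at day 2 than at day 1 (-1.02, adjusted p = 0.00733). Undetected at day 0, Il34 entered the test only through later days, which favours a higher value there. Days 2 and 3 did not pass against day 0 (adjusted p = 0.0508 and 0.0528). Csf3, which encodes G-CSF, was detected on 4 arrays with 1 of its 2 probes and did not pass on any day against day 0 (adjusted p = 0.328 to 0.888).

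Among other haematopoietic cytokine receptors and class III kinases, 10 of 18 listed genes were tested. At day 1, 0 were higher and 6 lower, at day 2, 2 were higher and 7 lower, and at day 3, 3 were higher and 6 lower. Over all tested genes 44.0%, 52.9% and 58.0% were called at days 1, 2 and 3 in either direction. The median log2 difference of the 10 was -0.45, -0.57 and -0.36, against 0.03, 0.02 and -0.01 over all tested genes. Il10ra, the IL-10 receptor chain, read 230 and 249 at day 3, against 713 and 807 at day 0 (-2.46 ± 0.138, adjusted p = 8.85e-06). Il13ra1, an IL-4 and IL-13 receptor chain, was lower at day 1 (-1.49 ± 0.122, adjusted p = 0.000133) and higher at day 3, with 520 and 534 at day 3 against 260 and 263 at day 0 (1.92 ± 0.122, adjusted p = 1.6e-05). Ifngr2 was higher at day 3 (1.35), and Ifnar2 (-1.30) and Il6ra (-1.13) were lower. The platelet-derived growth factor receptors Pdgfra and Pdgfrb, kinase kin of Csf1r, did not pass the detection filter.

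Downstream of the receptors signalling genes were called in both directions, as were genes over the whole array. Of 28 genes of proximal signalling, 22 were tested. At day 1, 3 were higher and 8 lower, against 23.0% higher and 21.0% lower of all tested genes. At day 2, 4 were higher and 8 lower, against 27.0% and 25.9%. At day 3, 7 were higher and 8 lower, against 28.7% and 29.3%. Their median log2 difference was -0.35, -0.20 and -0.05. Of the direct effectors of the beta chains, Jak2 was lower at day 2 than at day 0 (-0.74, adjusted p = 0.0169, with -0.70 and adjusted p = 0.00826 on its other probe), a call lost without replicate 1 of day 0 (adjusted p = 0.0892) and without replicate 2 of day 2 (0.0966). It was not called at day 1 (adjusted p = 0.174) or day 3 (0.91). Stat5a and Stat3 were not called on any day against day 0, though 1 of the other Stat3 probes, ILMN_2698046, was lower at day 1 (-0.77, adjusted p = 0.0334). The Src kinase gene read 3966 and 4385 at day 3, against 184 and 183 at day 0 (6.66 ± 0.0862, adjusted p = 1.13e-07), though its other tested probe, ILMN_2677529, did not pass (0.31, adjusted p = 0.328). Fgr, of the same kinase family, was higher by 2.33. Gab3, an adaptor in M-CSF receptor signalling, was lower by -3.44 ± 0.117, with 194 and 193 at day 3 against 801 and 777 at day 0. Dok2, an adaptor that damps kinase receptors, was lower by -2.56 and Pik3cg, a PI3 kinase catalytic subunit, by -1.93. Another such subunit, Pik3cb, picked out after its values were seen, was higher at day 3 by 1.92 (adjusted p = 1.25e-05). Pik3ca and Pik3cd were not called at day 3.

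Of 15 genes for brakes, ubiquitin ligases and proteases of these receptors, 11 were tested. At day 1, 2 were higher and 3 lower, at day 2, 3 were higher and 5 lower, and at day 3, 2 were higher and 5 lower. Calls in either direction made up 44.0%, 52.9% and 58.0% of all tested genes at days 1, 2 and 3. The medians were -0.04, -0.06 and -0.18. Socs2, a STAT5-induced suppressor of cytokine signalling, read 172 and 171 at day 0, 204 and 221 at day 1, 624 and 725 at day 2, and 503 and 560 at day 3. It was undetected at day 0 and at least 1.63-fold, 13.9-fold and 11.8-fold higher at days 1, 2 and 3 (adjusted p = 0.00287, 2.33e-06 and 2.33e-06). Socs3, the suppressor known for acting on the G-CSF receptor, read 184 and 202 at day 0, 1011 and 891 at day 1, 241 and 251 at day 2, and 198 and 227 at day 3. Its difference was 3.75 at day 1 (adjusted p = 2.35e-05), and the day 3 call was close to the threshold (0.58, adjusted p = 0.045) and lost in 10 alternatives. Cish, another STAT5 target, was called at day 2 alone, with 273 and 315 at day 2 against 172 and 170 at day 0 (at least 3.88-fold, adjusted p = 0.000321). Sla (-1.36), Adam17, the protease that sheds Csf1r (-1.07), and Cbl, a ubiquitin ligase of Csf1r (at least 1.12-fold), were lower at day 3. A second Sla probe, ILMN_3043669, did not pass (-0.72, adjusted p = 0.132).

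Genes known to respond to STAT5 or GM-CSF were mostly lower. Of 14 genes, 11 were tested, with 2 higher and 7 lower at days 1 and 2, and 1 higher and 7 lower at day 3. Lower calls made up 21.0%, 25.9% and 29.3% of all tested genes at days 1, 2 and 3, and higher calls 23.0%, 27.0% and 28.7%. Their median log2 difference was -0.84, -1.96 and -1.57. Id1, an inhibitor of helix-loop-helix factors, read 172 and 169 at day 3, against 1863 and 2026 at day 0 (-5.70 ± 0.244, adjusted p = 2.89e-06). Ccnd1, the D1 cyclin, was lower by -3.05, Pparg, a nuclear receptor induced by GM-CSF in alveolar macrophages, by -3.04, and Bcl2l1, a survival gene, by -2.89. Socs2 was the 1 member of the list higher at day 3. Cish and Socs2 were the genes of the list higher at day 2. Several of these genes respond to other signals as well. The list was not split by whether STAT5 or GM-CSF raises or lowers a gene, so its median does not measure that signalling.

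Of 18 transcription factors known to act on Csf1r or other myeloid receptor genes, 15 were tested. At day 1, 5 were higher and 7 lower, at day 2, 3 were higher and 9 lower, and at day 3, 2 were higher and 8 lower. Calls over all tested genes were 23.0% higher and 21.0% lower at day 1, 27.0% and 25.9% at day 2, and 28.7% and 29.3% at day 3. The medians were -0.42, -0.59 and -0.67. Irf8, a macrophage lineage factor, read 173 and 182 at day 3, against 714 and 673 at day 0 (-3.73 ± 0.244, adjusted p = 1.82e-05). The ETS factors Fli1 (at least 4.95-fold) and Ets2 (-2.21) and the granulocyte factor Cebpa (-2.21) were lower at day 3, and Nfatc1, the master factor of osteoclasts, was higher (1.96). Spi1, which encodes PU.1 and was picked out after its values were seen, was higher by 1.18 ± 0.104 (adjusted p = 7.68e-05). It read 2154 and 2530 at day 3, against 1239 and 1219 at day 0.

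**Figure D4:**
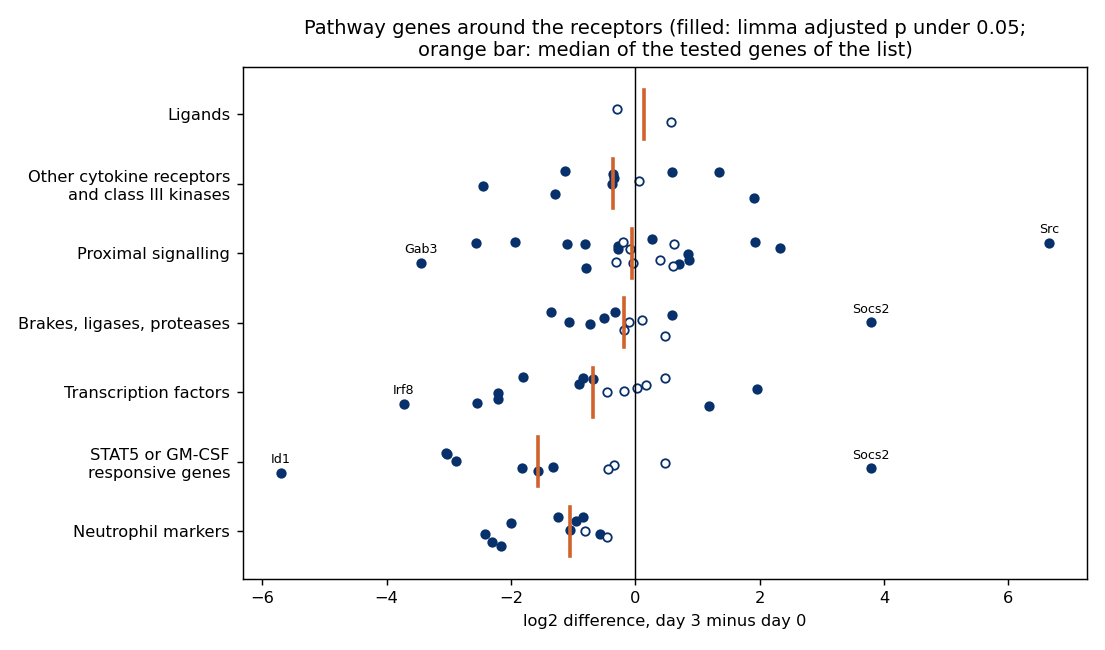
Log2 difference of day 3 less day 0 (horizontal axis) for each tested gene of the lists around the receptors, 1 probe a gene, filled where the limma adjusted p is under 0.05, with an orange bar at each list's median. Src, at 6.66, and Id1, at -5.70, are the farthest points, and the genes responsive to STAT5 or GM-CSF have a median of -1.57.

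For each changed receptor the genes of most similar course were sought among those detected on all arrays (6545 genes, or 6652 for Csf3r, which included genes detected in the same arrays). Likeness was the root mean square difference of log2 values centred on each probe's mean over the 8 arrays. Nearest to Csf2ra were Lacc1 (0.0549), Pip4k2c (0.0557) and Saraf (0.0594), with r of 0.973 to 0.985 over the 8 arrays. Il3ra was followed by Dram1 (0.0792), Fam3a (0.0801) and Stx3 (0.0845), with r of 0.97 to 0.986. Nearest to Csf2rb were Txnrd3 (0.162), Slc20a2 (0.193) and Cast (0.196), with r of 0.956 to 0.984, and to Csf2rb2 Malt1 (0.187), Baiap2 (0.192) and Rala (0.248), with r of 0.95 to 0.984. Csf3r was nearest to Cpd (0.107), Krt75 (0.11) and Elmo1 (0.127), with r of 0.955 to 0.984. The distance grows with a probe's own changes and noise, so it is not compared between receptors. The 3 nearest genes of Csf2rb and of Csf2rb2 were not the same. These are descriptions over 4 days, and many genes share such courses.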

How the data were processed

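Total RNA was measured as biotin-labelled cRNA on an Illumina bead array (MouseRef-8 v2.0), 2 arrays for each of 4 days. Per the file headers, the deposited table gives a signal intensity for every probe and array. Its values are linear and show neither background subtraction nor normalization between arrays. Beside it the authors deposited a detection p-value. A second deposited table of linear intensity values, from which the authors had subtracted something by a step that no source used here gives, served as an alternative only.

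The neqc function of limma 3.58.1 (R 4.3.3) was applied to the signals, with normexp background correction using negative controls that it infers from the detection p-values. It then added an offset of 16, normalized by quantiles and took log2. Of 25697 probes, 23978 carried 1 symbol in the platform annotation, 0 several and 1719 none, and 23962 matched RefSeq (GRCm38.p6) by Entrez number. Probes detected at p under 0.05 on at least 2 arrays were tested (12683, of 8663 genes). All 8 arrays entered 1 limma fit (lmFit, eBayes) with the 4 days as groups, leaving 4 residual and adding 2.83 prior degrees of freedom. Benjamini-Hochberg adjustment was made within each comparison and not over comparisons. In gene lists each gene was read from its brightest detected probe on average. The fit was tested on simulated data.

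The members, the gene lists and the tests were chosen with earlier results of these data known. Every member probe is named. For each list the text takes up to 5 called genes with the largest difference of day 3 from day 0, measured ligands and detected markers of other cell types. No pairing by replicate number was seen: deviations of same-numbered arrays from their day means correlated at r = -0.0885 to 0.076 over probes. Whether same-numbered arrays share a culture or mouse cannot be told from this. Alternatives changed the background correction, scaling, offset, filter, source of the values, probe choice, variance moderation, samples in the fit and the replicate block, and left out each array in turn. Promoters came from RefSeq and motifs were searched on both strands.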

Additional observations from a re-analysis of the deposited data

How the results depend on the processing

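With 2 arrays a day and 4 residual degrees of freedom, small differences at low signal are poorly resolved, and the dim Csf2rb and Csf3r probes sit near the detection limit. No difference of a member probe that passed the test changed sign under any of the alternatives run. The calls of Csf2ra at day 1, of Csf2rb (ILMN_2688262), of Csf2rb2 at days 1 and 3 and of Il3ra at days 1 and 2, all against day 0, held in each alternative and with each array left out. Csf3r was tested only through its detection at day 0, so its calls say nothing of stability. The larger moves in the number of called member probes were as follows, and beyond the loss of probes through stricter filters the cause was not tested. Day 3 against day 2 (1 call) gave 3 without background correction, 0 with median scaling, 3 with an offset of 50, 2 with a detection p under 0.01, 3 with detection on all 8 arrays, 0 with no filter, 2 with the authors' processed values and 3 with an intensity trend and robust moderation. Day 2 against day 1 (2 calls) gave 1 with median scaling, with an offset of 50, with either stricter filter, with the authors' values, with 1 probe a gene and with robust moderation. Day 2 against day 0 (5 calls) gave 3 with either stricter filter, which leave 4 member probes. Day 3 against day 0 (5 calls) gave 2 with a detection p under 0.01, 3 with detection on all arrays and 3 with 1 probe a gene. Day 3 against day 1 (2 calls) gave 1 with a detection p under 0.01, with 1 probe a gene and with robust moderation. Smaller moves also occurred: day 1 against day 0 (6 calls) gave 4 with either stricter filter and 5 without background correction and with 1 probe a gene. Day 2 against day 0 gave 4 without background correction, with an offset of 50, with the authors' values, with 1 probe a gene and with robust moderation, and 6 with only the arrays of both days. Day 3 against day 0 gave 6 without background correction, with median scaling and with an offset of 50, and 4 with only the arrays of both days. Without each array in turn, the lowest and highest counts against day 0 were 5 and 6 (day 1), 4 and 6 (day 2) and 4 and 5 (day 3). They were 0 and 2 for day 2 against day 1, 0 and 3 for day 3 against day 2, 2 and 4 for day 3 against day 1, and 5 and 7 for the F test.

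With the replicate number as a block, day 3 against day 2 gave 0 calls and the F test 7, and the other counts were 6, 5 and 5 against day 0 and 2 and 2 for days 2 and 3 against day 1. The median log2 difference of all tested probes was 0.146 with median scaling and 0.0548 with quantile normalization for day 1 less day 0, -0.138 and -0.0317 for day 2 less day 1, and -0.215 and -0.0389 for day 3 less day 1. With median scaling 2079 probes were higher and 3752 lower at day 2 than at day 1, against 2679 and 2985 with quantile normalization. The same scaling gave 685 higher and 1679 lower at day 3 than at day 2, against 1103 and 1246, and 2518 higher and 4871 lower at day 3 than at day 1, against 3415 and 3802. The slide as a block was not run, since the headers name no slides.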
